A study of Mus musculus with 6 samples.

Results

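Osteoblasts, the cells that build bone, express a recognised set of genes, and 10 of these were followed here in RNA-seq of embryonic mouse tissue labelled as whole brain. The genes were the regulators Runx2, Sp7 and Dlx3, the mineralisation enzyme gene Alpl, the matrix genes Ibsp, Spp1, Bglap and Dmp1 of mineralising tissue, and the broader matrix genes Sparc and Postn. They were chosen by name, as the list that would show skull tissue in a brain sample, and every transcript ID that the RefSeq gene table assigned to them was kept. This gave 13 transcript IDs of the 23485 in the tables. The samples were 3 female and 3 male, all from wild-type C57BL/6 embryos at E15.5, with no treatment and no altered allele in either sex. Sex was read from the gonads at dissection, and the RNA of several embryos was pooled for each sample, so variation between the embryos of a pool cannot be seen. Totals ran from 4908565 to 10294443 counts per sample.

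The flat bones of the skull vault form directly from mesenchyme that lies over the brain, without a cartilage model. Cells of this mesenchyme become osteoblasts under the transcription factors Runx2 and then Sp7 (osterix), lay down type I collagen, and later add the enzyme alkaline phosphatase (Alpl) and acidic glycoproteins that bind calcium and integrins. Neurons and glia are not known as sources of bone sialoprotein (Ibsp), which makes it one of the more restricted markers in the list, whereas Sparc, Postn and Spp1 are also made by vessels, meninges, fibroblasts or immune cells, and Dlx3 is also a regulator in epidermis. A count from bulk tissue does not say where in the sample the RNA came from. Fewer cells of a type and less RNA per cell cannot be told apart either.

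The promoters of Ibsp, Bglap and Mmp13 are shown here because their counts differed widely. Ibsp had the highest counts of the list, Bglap (osteocalcin, the late osteoblast matrix protein) had almost none, and Mmp13 (collagenase 3, made in developing bone, outside the list of 10) varied the most between samples among the bone gene IDs averaging 50 counts or more. The Bglap counts are uncertain, because Bglap shares sequence with its neighbour Bglap2 (below). Each sequence is the 150 bases before the RefSeq gene start, 5′ to 3′ on the strand of the gene, in build GRCm38.p6, and is not in the coordinates of the count files, which used mm9. Capitals mark the letters found in a search of both strands for TGTGGT (the RUNX core), CCAAT (the CCAAT box) and TATAAA (the TATA box). The Ibsp stretch is chr5:104299137-104299286 on the plus strand, that of Bglap chr3:88384467-88384616 on the minus strand, and that of Mmp13 chr9:7272364-7272513 on the plus strand.
Ibsp: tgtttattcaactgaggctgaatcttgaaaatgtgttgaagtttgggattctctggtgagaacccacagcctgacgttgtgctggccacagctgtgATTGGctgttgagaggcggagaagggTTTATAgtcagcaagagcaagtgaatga
Bglap: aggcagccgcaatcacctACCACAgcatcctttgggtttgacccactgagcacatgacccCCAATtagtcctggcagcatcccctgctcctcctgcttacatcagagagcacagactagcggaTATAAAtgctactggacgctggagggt
Mmp13: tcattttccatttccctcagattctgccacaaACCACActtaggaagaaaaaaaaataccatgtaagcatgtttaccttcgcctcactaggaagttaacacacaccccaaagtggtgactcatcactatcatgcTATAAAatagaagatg

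All of the matches in Ibsp lay on the opposite strand, the CCAAT box as ATTGG beginning 54 bases before the start and the TATA box as TTTATA beginning 28 bases before it. Bglap held ACCACA, the RUNX core on the opposite strand, 132 bases before the start, besides CCAAT at 90 and TATAAA at 27. Mmp13 held ACCACA at 118 and TATAAA at 16. Among 32851 mouse promoters cut to the same 150 bases, 8.40% held the RUNX core on either strand, 24.5% the CCAAT box and 7.57% the TATA box. These matches describe letters in a window and are not measured binding sites.

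Ibsp was the abundant member. Ibsp (NM_008318; NCBIM37 chromosome 5, 104728190 to 104740488, plus strand, 7 exons) encodes bone sialoprotein, a matrix glycoprotein that binds hydroxyapatite. In the order of the replicate numbers 1, 2 and 3, which is kept for all genes below, females had 3218, 3143 and 7420 counts and males 6177, 2356 and 9342. As CPM, which are counts scaled to library totals with TMM factors, these were 520.2, 626 and 757 in females and 639, 359.6 and 933 in males. Male sample 3 was the highest, male sample 2 the lowest, and the 3 female samples lay between them. Per kilobase of transcript (RPKM) the mean level was 309 ± 95 (SD, n = 6), which was at percentile 99.5 of the IDs with a transcript length. On the same scale Tubb3, the neuronal tubulin, was at 843 and Col1a2, a chain of type I collagen, at 1322.

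Dlx3 was the second member with more than 50 counts on average. Dlx3 (NM_010055; chromosome 11, 94981403 to 94986610, plus strand, 3 exons) encodes a homeodomain factor of osteoblasts, epidermis and placenta. Its counts were 181, 106 and 249 in females and 237, 104 and 275 in males. The CPM values were 29.3, 21.1 and 25.4 in females and 24.5, 15.9 and 27.5 in males, so the sexes overlapped and male sample 2 was again the lowest. The level was 9.08 RPKM ± 1.83 (SD, n = 6).

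The other regulators were counted in small numbers. Sp7 (chromosome 15, 102187040 to 102197285, minus strand), the zinc finger factor required for osteoblast formation, had 11, 12 and 18 counts in females and 14, 4 and 32 in males under NM_001348205. Its other ID, NM_130458, had 4, 5 and 3 counts in females and 2, 1 and 5 in males. Male sample 3 was the highest and male sample 2 the lowest for the first ID. Runx2 (chromosome 17, 44632936 to 44951746, minus strand), the factor that commits mesenchymal cells to the osteoblast lineage, had 9, 1 and 12 counts in females and 6, 11 and 14 in males under NM_001145920. Under NM_001271627 it had 7, 1 and 1 counts in females and 0, 1 and 3 in males. The Runx2 locus overlaps genes on the opposite strand, among them Supt3h. The libraries were stranded, but the strand setting of the counting is not given in the sources used here, so reads of these overlapping genes may not have been told apart.

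The enzyme and the remaining matrix genes of mineralising tissue were at or near 0. Alpl (chromosome 4, 137297648 to 137352299, minus strand), which frees phosphate for mineral, had 0, 0 and 3 counts in females and 1, 1 and 2 in males under NM_007431, and a single count in female sample 3 under NM_001287172. Bglap (NM_007541; chromosome 3, 88187423 to 88188386, minus strand) had 2, 2 and 5 counts in females and 2, 4 and 9 in males. Spp1 (NM_001204233), which encodes osteopontin, was listed at 0 in the 3 female samples and had 2, 1 and 1 counts in males. Dmp1 (NM_016779), an osteocyte and dentin matrix protein, had 1 count, in male sample 1. With 0 counts, a level of up to 3 counts is possible (an approximate one-sided 95% limit), or 0.2997 to 0.597 CPM depending on the sample. These limits cover counting error only, and no fold is given where both sexes lie at or under them.

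Of the general matrix genes, Postn (NM_015784; chromosome 3, 54165031 to 54194961, plus strand), which encodes periostin of periosteum and other connective tissue, had 13, 8 and 11 counts in females and 6, 7 and 28 in males. Sparc (NM_009242; chromosome 11, 55208002 to 55233582, minus strand), which encodes osteonectin, a glycoprotein made by many stromal and vascular cells, had a single count, in male sample 3. Per length, the order of the listed genes by their leading ID was Ibsp, Dlx3, Bglap (1.12 RPKM), Sp7 (0.646), Postn (0.484), Runx2 (0.170), Spp1, Alpl, Sparc and Dmp1. The 6-sample ranges of Ibsp and Dlx3 did not overlap, nor did those of Dlx3 and Bglap. Every later pair of neighbours in the order of the 13 IDs overlapped. Dividing by the mean length of a gene's transcripts in place of the longest gave Runx2 0.479 RPKM and left the first 7 IDs in the same order. All genes after Bglap in this order have several RefSeq transcript accessions, a group with lower counts (below), and Bglap shares sequence with Bglap2. The order is thus that of reads counted per length and may not be that of the transcripts.

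**Figure D1:**
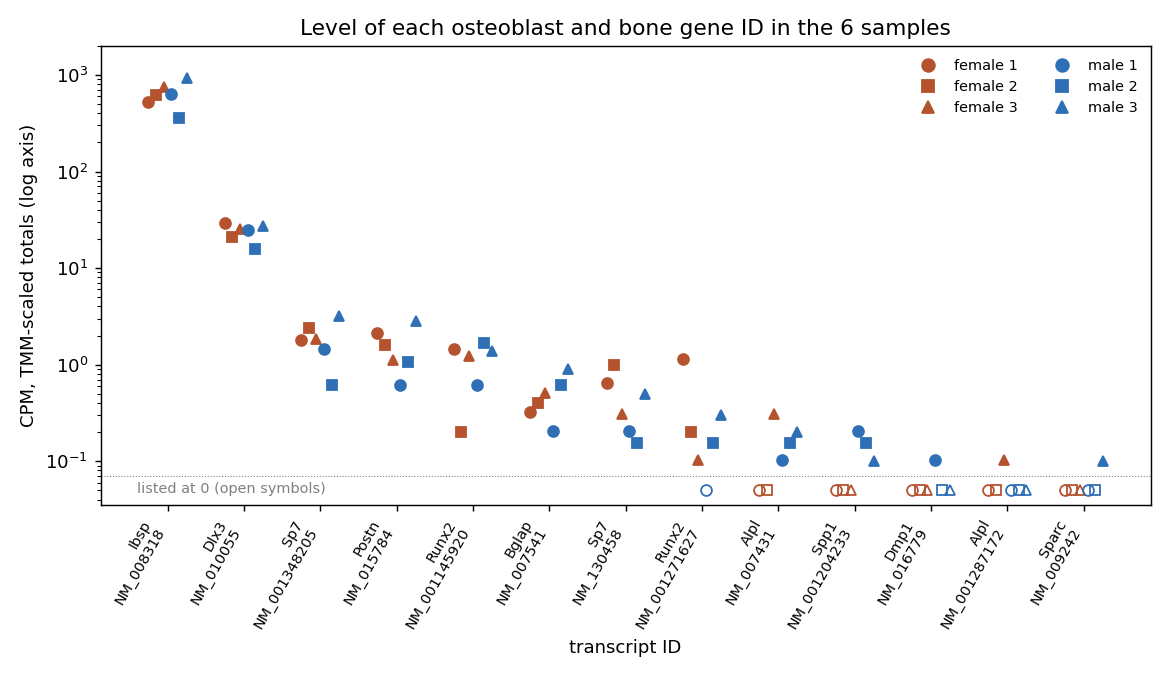
CPM with TMM-scaled totals (log axis) of each of the 13 transcript IDs in the 3 female and 3 male samples, 1 point per sample, with open symbols below the dotted line for values listed at 0. Ibsp lies between 359.6 and 933 CPM, Dlx3 between 15.9 and 29.3 CPM, and the other IDs lie below both.

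Ibsp, Dmp1 and Spp1 lie side by side on chromosome 5, together with Mepe, another acidic matrix glycoprotein gene of bone. In NCBIM37 coordinates Dmp1 begins at 104631632, Ibsp at 104728190, Mepe at 104754348 and Spp1 at 104864137. Their mean counts per sample were 0.167 for Dmp1, 5276 for Ibsp, 3.67 for Mepe and 0.667 for Spp1. Within this cluster of related genes, counts were thus concentrated in Ibsp. Ibsp and Mepe have 1 RefSeq transcript accession each, whereas Dmp1 has 2 and Spp1 has 5, which limits the reading of their low counts, as described next.

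Low counts were more frequent among genes with several transcript accessions, which bears on 7 of the 10 genes. Across 17601 genes, those with 1 RefSeq transcript accession in the gene table had a median of 121 counts per sample (n = 11458). Those with 2 accessions had a median of 5.0 (n = 3188), those with 3 to 4 also 5.0 (n = 2064), and those with 5 or more 6.0 (n = 891). A mean under 10 counts was found for 30.9% of genes with 1 accession and for 60.7% of genes with 2. Ibsp, Dlx3 and Bglap have 1 accession each, and Bglap, with a mean of 4.0 counts, was low all the same, as were Bglap2 and Mepe outside the list. Sp7, Alpl, Dmp1 and Sparc have 2, Spp1 has 5, Postn 6 and Runx2 8.

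Genes used by every cell were also read, and were picked after their values were seen. Gapdh, a glycolytic enzyme gene with 2 accessions, had 1 to 3 counts in each sample, whereas Actb, with 1 accession, had a mean of 55880 counts. The divide was not clean, since Ppia, an abundant gene of every cell with 1 accession, had a mean of 49 counts. A count near 0 for Sparc, Spp1, Alpl, Dmp1, Postn, Runx2 or Sp7 therefore cannot be read as lack of the transcript. How reads shared by several transcript models were counted is not given in the sources used here, and its part in these counts was not tested.

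**Figure D2:**
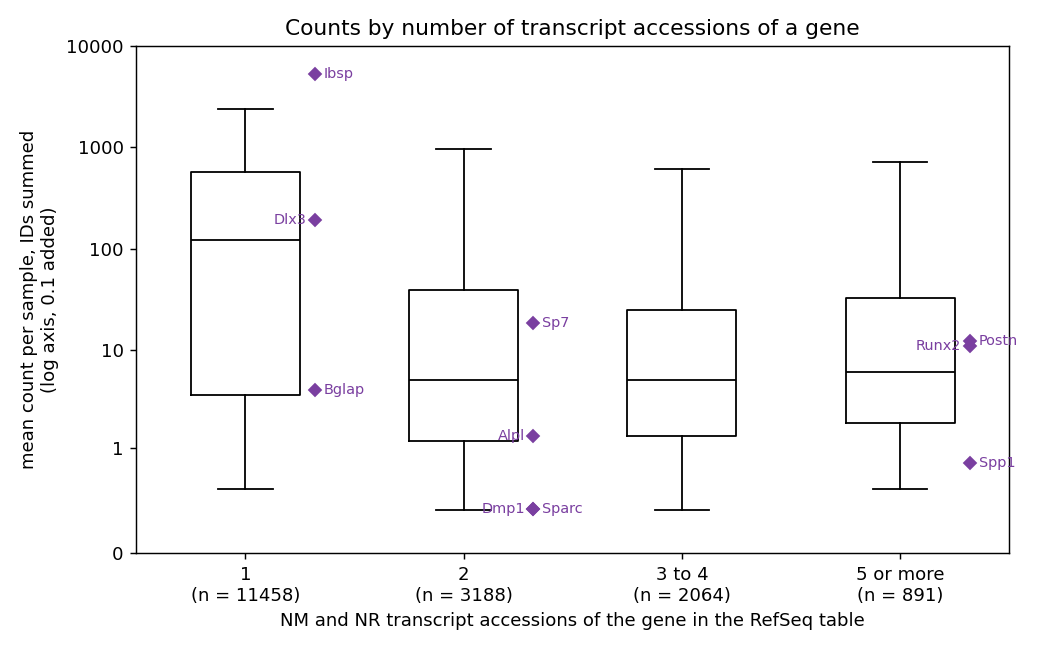
Mean count per sample of each gene, its IDs summed (log axis with 0.1 added), by the number of NM and NR transcript accessions of the gene in the RefSeq table. Boxes span the quartiles with the median as a line, whiskers reach from percentile 5 to 95, and diamonds mark the 10 osteoblast and bone genes, of which those with 1 accession include Ibsp and Dlx3 and those with more all lie below 20 counts.

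Bglap needs a separate caution, because near-identical copies lie next to it. Of the 341 windows of 100 nt in its longest annotated transcript, 56.3% also occur in Bglap2, and Bglap2 shares 57.0% of its windows with its neighbours. Bglap2 (NM_001032298) had 5, 3 and 16 counts in females and 10, 3 and 11 in males. Bglap and Bglap2 counts are therefore uncertain. No such window was shared by the transcripts of the other 9 genes.

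Other genes of bone formation were read to see whether Ibsp stood alone. Of 22 further symbols, 21 had an ID in the tables, with 23 IDs in all. The type I collagen genes Col1a1 and Col1a2, which form the bulk of bone matrix and are also made by meninges and dermis, had means of 6800.2 CPM ± 1551 and 7067 CPM ± 1226 (SD, n = 6). Ifitm5, a membrane protein gene largely restricted to osteoblasts, had 16.3 to 33.3 CPM. Mmp13 had 3.82 to 22.6 CPM. Cdh11, the mesenchymal cadherin, had 861 to 1044 CPM.

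Genes that set phosphate and mineral supply were also counted. Smpd3, a sphingomyelinase needed for skeletal mineralisation and also expressed in neurons, had 173 to 279 CPM. Ank, a pyrophosphate transporter, had 62.3 to 92.9 CPM, and Phex, an endopeptidase of osteoblasts and osteocytes that acts in phosphate balance, had 32.1 to 52.1 CPM. Among the regulators averaging 50 counts or more, transcription factors of cranial mesenchyme ranged from 4.96 to 10.8 CPM for Dlx6 to 74.5 to 94.6 CPM for Twist1, with Alx4 (68.5 to 94.6 CPM), Msx1 (5.97 to 14.9 CPM) and Msx2 (12.5 to 14.9 CPM) among them. Regulators under that level are not listed one by one, and Dlx5 and Atf4, which have 2 accessions each, stayed under 1 CPM in every sample. Omd, the gene of osteomodulin, stayed under 3 counts in every sample. It has 2 accessions, whereas each of the 13 IDs averaging 50 counts or more belongs to a gene with 1.

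Markers of osteoclasts, the cells that resorb bone, were present in part. Ctsk, the collagen-degrading protease of osteoclasts, had 73.6 to 104 CPM and 60 RPKM on average. Mmp9 had 41.2 to 83.1 CPM and Tnfrsf11a, the receptor RANK, 5.49 to 14.3 CPM. Acp5, Calcr and Ocstamp, which define mature osteoclasts more narrowly, had at most 9 counts in any sample, and Acp5 and Calcr have several accessions. Mmp9, Tnfrsf11a and these 3 genes were named after their values were seen.

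The tissue label was checked against the same tables. Neuron markers summed to 2421 to 3444 CPM over the 6 samples and neural progenitor markers to 2651 to 3133 CPM, led by Tubb3 and by Vim (782 RPKM). Markers of other tissues and cell types, around or within the brain, were present beside them. Meningeal and fibroblast genes summed to 7750 to 9494 CPM, led by Col3a1 (1318 RPKM), skeletal muscle genes to 4953 to 7866 CPM, led by embryonic myosin Myh3 (393 RPKM), and epidermal genes to 825 to 1853 CPM, led by Perp (212 RPKM). Choroid plexus genes summed to 449 to 739 CPM, led by Ttr (447 RPKM), vascular genes to 710 to 827 CPM, led by Cdh5 (69.1 RPKM), and macrophage genes to 112 to 146 CPM, led by Csf1r (18.2 RPKM). Pax6, Pecam1, Aif1, Trp63, Enpp1 and 9 further list genes were not analysed here. The 13 IDs of the bone list summed to 380.1 to 970.2 CPM, almost all of it Ibsp. The part of these tissues in the bone gene counts was not tested. All of these sums are CPM without scaling to transcript length, over lists of unequal size, so they do not rank the tissues by amount. In the muscle list the very long Ttn (NM_011652) had a mean of 1790 CPM but 16.8 RPKM. In the meningeal list Col3a1 alone had a mean of 7331 CPM.

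Sex, the one condition of the study, was then compared. None of the 10 genes was called different between male and female samples. Of the 13 IDs, 5 passed the filter of at least 10 counts in 1 or more samples, 1 each for Ibsp, Dlx3, Sp7, Runx2 and Postn, and 8 did not, among them every ID of Bglap, Alpl, Spp1, Dmp1 and Sparc. In edgeR's quasi-likelihood test with Benjamini-Hochberg adjustment over all 13374 tested IDs, 0 of 5 were called at an adjusted p under 0.05, where 0.0299% of all tested IDs were. At an unadjusted p under 0.05 there were also 0, where 6.68% of all tested IDs were higher in males and 4.82% higher in females. With no low-count filter, all 13 IDs were tested and 0 were called, where 276 of all 23485 IDs were. DESeq2 gave an adjusted p for Ibsp alone, which was not called, and unadjusted p-values of 0.504 to 0.978 for the 5. The CPM values of the sexes overlapped for each of the 5, whereas they did not overlap for 17.1% of all tested IDs.

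The estimates for Ibsp and Dlx3 were narrow enough to bound the difference. For Ibsp the log2 fold change of male over female was 0.02 (SE 0.26, edgeR adjusted p = 0.984), and its 95% interval of -0.53 to 0.57 spans ratios of 0.691 to 1.49. For Dlx3 it was -0.15 (SE 0.22, edgeR adjusted p = 0.815), with an interval of -0.63 to 0.32. The low-count IDs gave wider errors. The log2 fold change was -0.15 (SE 0.60) for Sp7, 0.29 (SE 0.77) for Runx2 and -0.07 (SE 0.66) for Postn, with edgeR adjusted p-values of 0.944, 0.909 and 0.981. A difference of up to 2-fold in either direction lies within these last intervals and was not detectable at this depth. The median over the 5 IDs was -0.07, beside -0.01 over all tested IDs. Whether the difference was above or below 0 changed for each of the 5 when single samples were left out, for Ibsp from -0.34 without male sample 3 to 0.32 without male sample 2.

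Of the other bone genes, 16 IDs were tested, and 0 were called by edgeR or had an unadjusted p under 0.05. Of all tested IDs, 0.0299% were called, and 6.68% (higher in males) and 4.82% (higher in females) had an unadjusted p under 0.05. In 5 of 14 alternatives 1 ID had an unadjusted p under 0.05, which was Cdh11 with upper-quartile factors and with 1 RUVr factor, Pth1r without female sample 3, Ifitm5 without male sample 2 and Mmp13 without male sample 3, and 0 were called in any of them. Over the 14 alternatives, from 741 of 13201 IDs (without female sample 2) to 2385 of 13374 (1 RUVr factor) were under that unadjusted threshold. Of the 16 IDs, 7 were higher in males and 9 in females, with a median log2 fold change of -0.03. Cdh11 was the single ID of these without overlap between the sexes, all male samples lying below all female samples (log2 fold change -0.20, SE 0.11, edgeR adjusted p = 0.506). With 17.1% of all IDs free of overlap, 1 of 16 is not above the background.

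**Figure D3:**
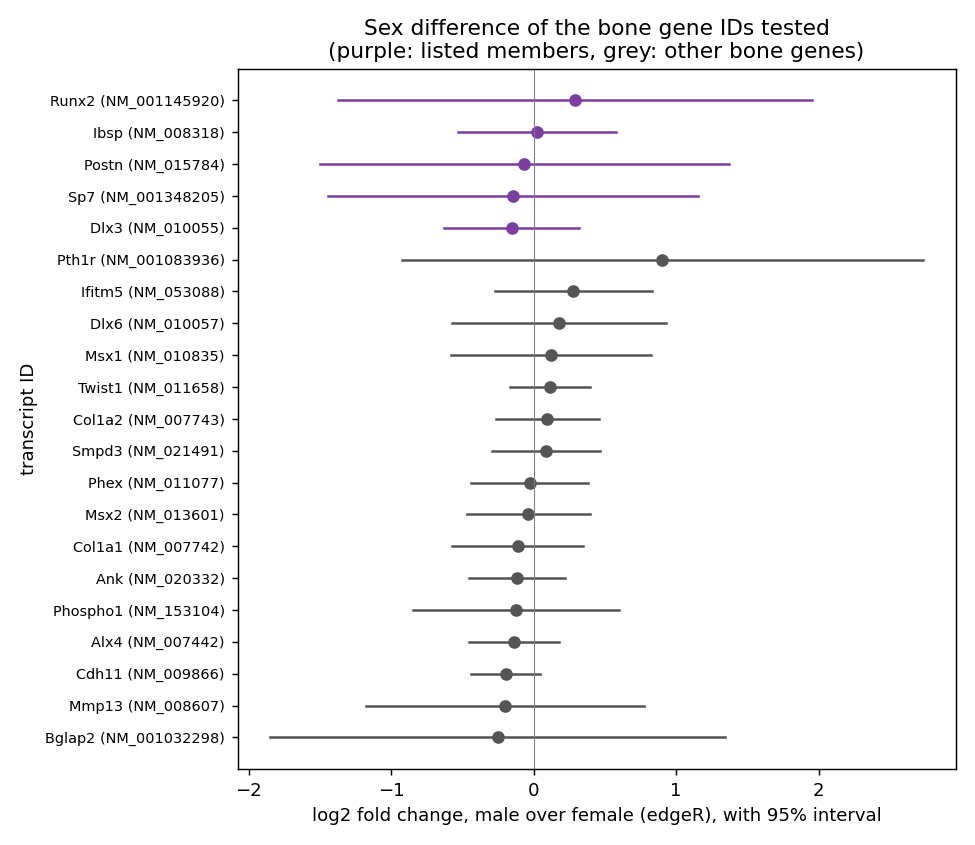
Log2 fold change of male over female from edgeR with its 95% interval, for the 5 tested IDs of the osteoblast and bone list (purple) and the 16 tested IDs of other bone genes (grey). The interval of each of these IDs includes 0, and none was called after adjustment.

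The spread between single samples was then described. For Ibsp the highest CPM was 2.6 times the lowest, and 5.99% of the 8358 IDs averaging 50 counts or more had as large a ratio. The ratio was 1.84 for Dlx3, 2.07 for Col1a1, 2.04 for Ifitm5 and 5.92 for Mmp13, beside a median of 1.503 over the 8358 IDs. Both extremes of Ibsp were male samples, number 3 the highest and number 2 the lowest.

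The same samples were the extremes for several bone genes. Of the 13 other bone IDs averaging 50 counts or more, 6 were highest in male sample 3 and lowest in male sample 2, namely Col1a1, Col1a2, Mmp13, Ank, Phex and Smpd3, and 8 were highest in male sample 3. Among all 8358 IDs, 1.78% had both extremes in these samples, 7.87% were highest in male sample 3 and 19.2% lowest in male sample 2. In the osteoclast list the share was 2 of 3 IDs, Ctsk and Mmp9, and Tnfrsf11a was also lowest in male sample 2. It was 1 of 7 in a cartilage list and 0 in the meningeal, muscle, epidermal, choroid plexus, macrophage, vascular, progenitor and neuron lists. Single extremes did occur in those lists, since 3 of 4 epidermal IDs were lowest in male sample 2 and 3 of 8 muscle IDs highest in male sample 3. The other 7 of the 13, which were Cdh11, Alx4, Msx1, Msx2, Twist1, Ifitm5 and Dlx6, did not have both extremes there, although Ifitm5 and Dlx6 were highest in male sample 3. The order of the samples was noticed in these data and has no test here. The labels give no litter, date or lane, so no value within a batch could be had.

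**Figure D4:**
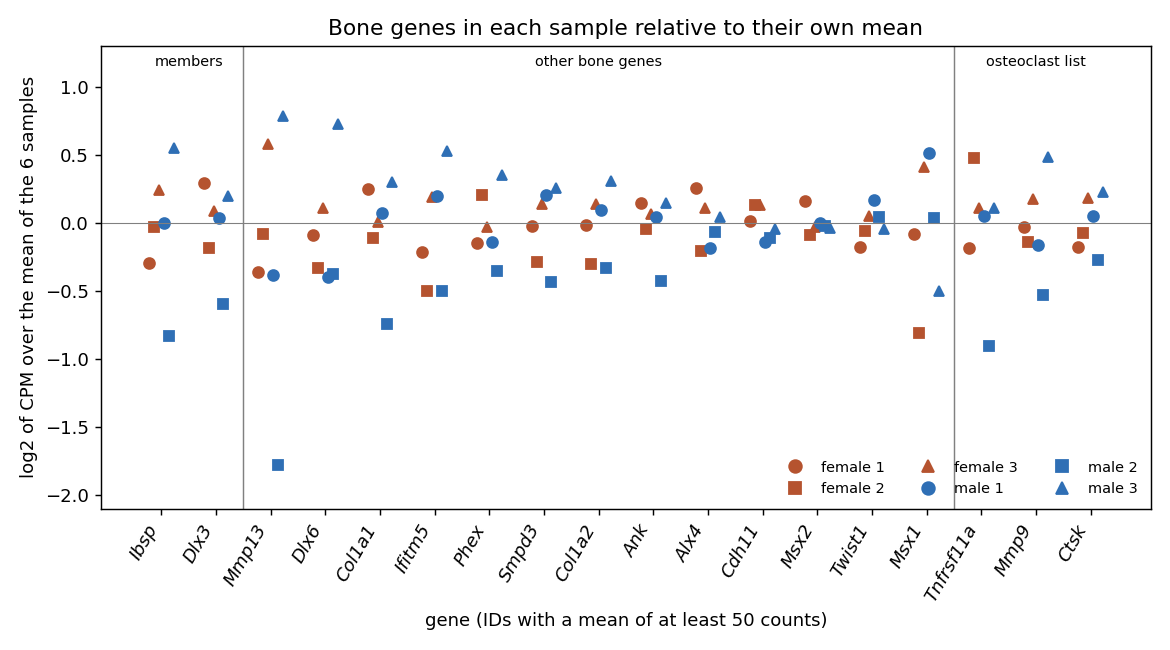
Log2 of the CPM over the mean of the 6 samples, for the IDs averaging 50 counts or more among the 10 listed genes, the other bone genes and the osteoclast list, 1 point per sample. Male sample 3 (blue triangles) is the highest and male sample 2 (blue squares) the lowest for Ibsp, 6 of the 13 other bone IDs and 2 of the 3 osteoclast IDs.

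IDs outside the list were ranked by likeness to the mean log2 CPM profile of Ibsp and Dlx3 over the 6 samples, with each gene centred on its own mean. Of 8356 candidates, the nearest were Met (r = 0.990), Cyp4x1 (r = 0.981), Hs6st3 (r = 0.978), Ccn4 (r = 0.971) and Sgms2 (r = 0.964). Met encodes the receptor of hepatocyte growth factor, Ccn4 a secreted matricellular protein, Sgms2 a sphingomyelin synthase, Hs6st3 a heparan sulfate sulfotransferase and Cyp4x1 a cytochrome P450. Sgms2 ran from 92.6 CPM in male sample 2 to 241 CPM in male sample 3, and Ccn4 from 123 to 184 CPM in the same samples. Between these samples Met ran from 66.7 to 84.5 CPM, Cyp4x1 from 5.49 to 7.39 CPM and Hs6st3 from 8.85 to 13.3 CPM. A high r thus did not mean a change as large as that of Ibsp. Of the list genes, Mmp13 ranked 6 (r = 0.960), Mmp9 13 (r = 0.941), Ank 14 (r = 0.940) and Col1a1 19 (r = 0.930). Others of the same bone list ranked far lower, among them Cdh11 (r = 0.306), Alx4 (r = 0.298), Msx2 (r = 0.027), Msx1 (r = -0.074) and Twist1 (r = -0.139). These are Pearson correlations over 6 samples of unequal depth, in each of which all genes share 1 library, given as a description, and with so few samples many IDs reach a high value.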

How the data were processed

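RNA-seq counts of 3 female and 3 male samples were analysed. Per the submitters' processing notes and the study's methods, reads of stranded total RNA libraries were trimmed (Trimmomatic 0.32), aligned to mm9 (TopHat2 2.1.1), assembled (Cufflinks 2.2.1) and assigned to transcripts (featureCounts 1.5.1). The values deposited by the authors are raw counts per RefSeq transcript ID, not normalised. The study itself compared the sexes with DESeq2 and RUVr.

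The members, lists and tests were chosen with earlier results of these data known. Symbols came from a RefSeq table (GRCm38.p6; 99.5% of IDs), coordinates and lengths (longest transcript) from GENCODE on NCBIM37 (91.6%). One list symbol was replaced by its RefSeq name, Ank, after the files were read. One gene of the other bone list is not reported here and is left out of the counts of that list. IDs with at least 10 counts in 1 sample were tested with edgeR 4.0.16 (R 4.3.3; TMM factors 0.940 to 1.03; quasi-likelihood F test; Benjamini-Hochberg), with the script checked on simulated data. Alternatives were other scalings and filters, RUVr, DESeq2 1.42.0, length and GC trends, summed IDs, a replicate block and leaving out each sample. Log2 CPM used a prior count of 2. Counts of the 6 same-sex pairs differed beyond sampling noise (chi-square per degree of freedom 9.03 to 44.9), so no library of a pair was a second count of the other. Pooling was meant by the study to even out litter and staging effects. Which litters went into which pool is not given in the sources used here, so p-values measure the spread between these pools. Named were all listed genes, other bone genes that were called, had a mean of at least 50 counts or stayed under 3 counts, the leading gene per length of each other list and the 5 IDs most like the members. Any other gene was named after its values were seen.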

Additional observations from a re-analysis of the deposited data

How the results depend on the processing

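None of the 5 tested IDs was called under any of the 15 alternatives, and their median log2 fold change stayed between -0.34 and 0.12. DESeq2 gave no adjusted p for Dlx3, Sp7, Runx2 and Postn. Signs of single genes changed: Ibsp was at -0.0275 with upper-quartile factors and at -0.0621 with the replicate block, Postn at 0.036 with length and GC trends removed and Runx2 at -0.0804 with the IDs of a gene summed. With single samples left out, log2 fold changes ran from -0.31 to 0.0432 for Dlx3, -0.34 to 0.32 for Ibsp, -0.92 to 0.33 for Postn, -0.13 to 0.64 for Runx2 and -0.90 to 0.23 for Sp7. The causes were not tested. Adjusted p-values over the alternatives were 0.489 to 0.997 for Ibsp and 0.561 to 0.989 for Dlx3 (edgeR or DESeq2). Over all IDs, 4 were called by default, 276 with no low-count filter, 107 with DESeq2, 36 with 1 RUVr factor and 4 to 51 with single samples left out, the most without female sample 3. The upper-quartile factors moved the median of all IDs to -0.06, and the run with no filter to -0.11. Samples with the same number did not deviate together (r = -0.32, -0.04 and -0.27 over 8358 IDs). The highest values of the other pairs were 0.28 for female 1 with male 3 and 0.27 for female 3 with male 1. These values rest on deviations from the mean of 3 samples per sex, so they cannot exclude shared litters or handling. The replicate block left 4 calls. The 8 IDs that the filter removed had under 10 counts in every sample, and the cause was not tested.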

Other observations

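Cartilage genes, which mark the cartilage templates of the skull base and other bones, were read beside Ibsp. Of 9 tested IDs, 0 were called by edgeR, 7 were higher in females, and 4 had an unadjusted p under 0.05, all of them higher in females, where 4.82% of all tested IDs were higher in females at that threshold, with a median log2 fold change of -0.73 beside -0.01 over all tested IDs. Hapln1, a link protein of cartilage matrix and also of perineuronal nets, led the list per length. It had 284, 245 and 209 CPM in females and 89.6, 84.1 and 171 CPM in males, without overlap, as for 17.1% of all tested IDs (log2 fold change -1.09, edgeR adjusted p = 0.338). The list summed to 395 to 527 CPM in females and to 173, 188 and 415 CPM in male samples 1, 2 and 3, whereas the 13 IDs of the osteoblast and bone list summed to 667, 380.1 and 970.2 CPM in the same male samples.

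Of the cartilage IDs averaging 50 counts or more, Comp and Col10a1 were highest in male sample 3. Comp, a matrix protein of cartilage and tendon, had 13.6, 10.4 and 17.0 CPM in females and 5.07, 4.27 and 19.6 CPM in males, so both of its extremes lay in the same samples as those of Ibsp (r = 0.798 to the profile of Ibsp and Dlx3). Col10a1, the collagen of hypertrophic cartilage, had 10.2, 17.9 and 21.2 CPM in females and 11.8, 15.4 and 63.4 CPM in males, with female sample 1 the lowest (edgeR adjusted p between the sexes 0.509). Mmp13, which is made in hypertrophic cartilage as well as in bone, had 10.2, 12.3 and 19.6 CPM in females and 10.03, 3.82 and 22.6 CPM in males. These genes were singled out after their values were seen.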
